A study of Mus musculus with 16 samples.

Results

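The aquaporins are the membrane channels through which water, and in some members glycerol, crosses the cell membrane. The 9 members studied were Aqp1, Aqp2, Aqp3, Aqp4, Aqp6, Aqp7, Aqp8, Aqp9 and Aqp11, taken by gene symbol from the liver and kidney expression tables, which list the same 32989 genes. Each symbol had 1 row in each table, so that all 9 members were found in both organs. Expression was measured by poly(A)-enriched RNA-seq and is given as FPKM, which scales the fragments on the exons of a gene to its exon length and to the total of the library. The animals were male C57BL/6J mice with no transgene or mutation, aged 97 weeks at collection. Of these, 4 had been kept for 85 weeks in a fixed light-dark cycle (LD) and 4 for 85 weeks under an 8-h phase advance of the light-dark cycle every 4 days (ADV), a chronic jet-lag schedule. Liver and kidney of each of the 8 mice were sequenced, which gave 16 libraries named by mouse (L63, L65, L86 and L104 for LD, A75, A91, A94 and A115 for ADV). The comparisons ask where each aquaporin is expressed and whether its mRNA level differed under the long ADV schedule in either organ. All organs were collected in the same window of hours after the last light-on. Within such a window, a changed level and a changed circadian phase cannot be told apart.

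Aquaporins fall into channels that pass mainly water (Aqp1, Aqp2, Aqp4), aquaglyceroporins that also pass glycerol (Aqp3, Aqp7, Aqp9), and members with other properties or an intracellular site (Aqp6, Aqp8, Aqp11). In the kidney, AQP1 serves bulk water reabsorption in the proximal tubule, and AQP2 is the channel that vasopressin moves into the apical membrane of collecting duct principal cells, where AQP3 and AQP4 form the basolateral exit. In the liver, AQP9 takes up glycerol into hepatocytes for gluconeogenesis and AQP8 serves canalicular water transport.

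Fragments on annotated genes numbered 21092501 to 24285055 per liver library and 15688495 to 18043306 per kidney library, with each read of a pair counted as 0.5, which was 91.2% to 92.9% of the library totals. By those totals, which set the FPKM scale, 1 fragment on 1 kb of exon was worth 0.0380 to 0.0440 FPKM in liver libraries and 0.0508 to 0.0584 FPKM in kidney libraries. The kidney library of A115 stood apart from the others. Mitochondrial genes took 30.9% of its fragments, against 14.6% to 16.5% in the LD kidneys and 8.63% to 12.0% in the other 3 ADV kidneys, so that this share also separated those 3 from LD. Its mean correlation with the other kidneys across genes was 0.858 against 0.932 to 0.964. Of the 14452 kidney genes tested, 55.4% had their lowest level in A115. The liver of A94 also stood apart, with a summed level of 7 myeloid markers of 268 FPKM against 71.2 to 154 in the other livers. The A94 kidney was likewise highest for these markers, at 321 FPKM against 43.4 to 154 in the other 7. Kidney differences between ADV and LD are given with and without A115. Hepatocyte markers (Alb, Apoa1, Ttr, Tat and Cps1) summed to 52475 to 65171 FPKM in the livers and to 17.1 to 57.7 FPKM in the kidneys, whereas 7 proximal tubule markers summed to 489 to 2364 FPKM in the kidneys and to 2.57 to 9.54 FPKM in the livers. A pair of sequencing providers and instruments is named for the study without a map to libraries, so a provider effect and a group effect cannot be told apart. Each p-value measures the spread between mice, with 1 library per mouse and organ.

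By FPKM, the LD kidneys held more aquaporin mRNA than the LD livers and a broader set of members. The 9 members together reached between 382 and 483 FPKM in the LD kidneys and between 171 and 200 FPKM in the LD livers. Over all genes tested the median log2 difference, liver minus kidney, was −0.80 in LD, and these sums were not rescaled for that shift. In the ADV mice the sum was 512 to 650 FPKM in the kidneys of A75, A91 and A94 and 181 to 248 FPKM in the 4 livers, whereas the A115 kidney, at 89.1 FPKM, lay below every liver. Aqp1 made up 64.5% ± 3.95 (SD, n = 4) of this sum in the LD kidneys and Aqp2 15.0% ± 4.93 (SD, n = 4). In the LD livers, Aqp9 made up 61.7% ± 2.15 (SD, n = 4), Aqp1 20.4% ± 2.79 (SD, n = 4) and Aqp8 10.6% ± 2.10 (SD, n = 4). So a water channel of the proximal tubule led in one organ and a glycerol channel of hepatocytes in the other.

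Within the LD kidneys the order of mean levels was Aqp1, Aqp2, Aqp3, Aqp11, Aqp6, Aqp4 and Aqp7. Aqp1 lay above Aqp2 and Aqp2 above Aqp3 in 4 of 4 LD kidneys without overlap of their ranges. The ranges of Aqp3 and Aqp11 overlapped although Aqp3 was the higher of the pair in 4 of 4 kidneys, and Aqp6 and Aqp4 could not be ordered, Aqp6 being higher in 1 of 4. Aqp7 was the lowest of the members detected well in the kidney. In the LD livers the order was Aqp9, Aqp1, Aqp8, Aqp11 and Aqp4, and no neighbouring ranges overlapped. In the ADV livers the ranges of Aqp1 and Aqp8 overlapped, with Aqp1 higher in 3 of 4.

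Several members were near or at 0 in one organ. Aqp2 and Aqp6, the channels of collecting duct principal and intercalated cells, had no fragment in any of the 8 livers, where 3 fragments would have given at most 0.0934 FPKM for Aqp2 and 0.0642 FPKM for Aqp6. Aqp7, known from adipocytes and the proximal tubule, had 3 fragments in 1 liver (A94) and 0 in the other 7. Aqp3 reached 15 fragments over the 8 livers, of which 8 were in A94. Conversely, Aqp8 had 14 fragments and Aqp9 51 fragments over the 8 kidneys, and 31 of those for Aqp9 were in A94. Of the other aquaporins, Aqp5 lay between 0 and 0.511 FPKM in the kidneys and between 0 and 0.209 FPKM in the livers, and Mip and Aqp12 had no fragment in any library. Bounds and intervals from fragments cover counting error only.

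All 9 members differed between the organs in the LD mice by limma's test on log2(FPKM + 0.1) with Benjamini-Hochberg adjustment over all genes, and 7 were lower and 2 higher in the liver. The background was high, since 66.6% of the 14968 genes tested differed, 55.5% lower and 11.1% higher in the liver. Aqp8 and Aqp9 were the members higher in the liver. Ratios of pooled FPKM put Aqp9 1557-fold higher in the LD livers (95% counting interval 928 to 2849) and Aqp8 699-fold higher (95% counting interval 239 to 3389.6). Their adjusted p-values from limma were 5.15e-11 and 9.15e-12. The liver lacked the collecting duct pair, and against a floor of 3 fragments over the 4 LD livers Aqp2 was at least 3074-fold higher and Aqp6 at least 1089-fold higher in the kidney. For Aqp7 the kidney was at least 341-fold higher by the same floor, and for Aqp3 1005-fold higher (95% counting interval 431 to 3094). These 4 members had adjusted p-values from limma between 5.12e-08 and 1.77e-06 for Aqp2, Aqp3 and Aqp6 and of 1.55e-10 for Aqp7.

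Aqp4 and Aqp1 were present in both organs at unequal levels. The pooled ratio of kidney to liver in LD was 27.2 for Aqp4 and 7.27 for Aqp1, with limma differences, liver minus kidney, of −4.62 (SE 0.47, adjusted p = 5.35e-07) and −2.86 (SE 0.44, adjusted p = 3.55e-05) on the log2 scale. Aqp11, an intracellular aquaporin whose loss causes kidney cysts in mice, came closest to equal levels, with a limma difference of −0.80 (SE 0.18, adjusted p = 0.00112). The median difference over all genes tested was also −0.80, so Aqp11 was no lower in the liver than the average gene. After scaling by the median ratio, which removes that shift, the Aqp11 difference was 0.014 (adjusted p = 0.947). Aqp11 was therefore the member whose direction between organs rested on the scaling, while the directions of the other 8 were the same under every scaling run.

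In the ADV mice all 9 members were again called, in the same directions, beside 62.9% of all genes, of which 51.7% lower and 11.2% higher in the liver. Without A115 the 9 members were also called, beside 78.2% of all genes. Leaving out A115 raised the pooled ratio of kidney to liver from 7.12 to 9.36 for Aqp1 and from 1.70 to 1.94 for Aqp11. For the members of the liver the pooled ratio of liver to kidney in ADV was 307 for Aqp8 (95% counting interval 172 to 615), which overlapped the interval in LD. For Aqp9 it was 683 in ADV (95% counting interval 495 to 970) but 2675 (95% counting interval 1229 to 7289) without A94, which held 31 of the 37 Aqp9 fragments of the ADV kidneys, so its place below or above the LD ratio turned on that library. Both organs of a mouse were left out for the values without it.

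In the liver, none of the 5 members tested (Aqp1, Aqp4, Aqp8, Aqp9 and Aqp11) was called between ADV and LD by limma at an adjusted p under 0.05, beside 0.00779% of the 12835 genes tested, which is 1 gene. By limma-voom on recovered fragments 0 members and 1 gene were called. At an unadjusted p under 0.05 the count was 1 of 5 members, Aqp8, and 1512 of all genes. The other 4 members had fewer than 3 fragments per library on average in the liver or none and were not tested.

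Aqp8, the hepatocyte water channel, had the widest spread of the members above 1 FPKM in the liver. Its levels were 19.6, 26.7, 18.2 and 14.6 FPKM in L63, L65, L86 and L104. In A75, A91, A94 and A115 they were 31.3, 37.7, 21.0 and 32.5 FPKM. Of the ADV livers 3 lay above the highest LD liver, and the fourth, A94, lay inside the LD range. The mean was 30.6 ± 6.97 (SD, n = 4) FPKM in ADV against 19.8 ± 5.07 (SD, n = 4) in LD, a limma difference of 0.63 (SE 0.22, 95% interval 0.15 to 1.11) with an unadjusted p of 0.0162 and an adjusted p of 0.362. The exact two-sided permutation test over 70 assignments gave p = 0.0571, where 0.0286 is the smallest it can give. Aqp8 was therefore 1.55-fold higher in the mean of the ADV livers, and this did not pass the adjustment. Pericentral and periportal hepatocyte markers, which vary along the liver lobule, summed to 5683 to 6599.8 and 988 to 1090.01 FPKM in the LD livers and to 4468 to 5728 and 855 to 1138 FPKM in the ADV livers. In each list 3 of the 4 ADV livers lay below every LD liver, with A91 above the lowest LD liver for the pericentral sum and A115 above all LD livers for the periportal sum. Cyp2e1 carried the lower pericentral sums, as the other 5 markers summed to 780 to 846 FPKM in LD and 736 to 952 FPKM in ADV. The periportal sum of A91 was only narrowly below LD, at 986 against 988 FPKM. Cyp2f2 lay at 443 to 603 FPKM in LD and at 424, 397, 432 and 547 FPKM in A75, A91, A94 and A115. Hal went the other way, at 43.0 to 53.3 FPKM in LD and 70.5, 73.1, 43.7 and 98.8 FPKM in these ADV livers. The part of the pericentral and periportal markers in the Aqp8 values was not tested.

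Aqp9 was the most abundant aquaporin in each of the 8 livers. The LD livers held 129, 124, 102 and 106 FPKM in L63, L65, L86 and L104, and the ADV livers 103.8, 126, 182 and 103 FPKM in A75, A91, A94 and A115. The groups overlapped, and A94 alone exceeded the LD range. The limma difference was 0.13 (SE 0.18, adjusted p = 0.772), and without A94 it was −0.05. The same liver was lowest for Aqp1 and for Aqp4 and, at a few fragments, highest for Aqp3 and Aqp7.

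Aqp1, Aqp11 and Aqp4 completed the liver set. Aqp1, which in the liver is known from bile duct cells and blood vessels, was nearly flat, at 37.1, 35.1, 38.4 and 40.2 FPKM in L63, L65, L86 and L104 and 35.1, 35.3, 31.9 and 38.2 FPKM in A75, A91, A94 and A115. Aqp11 ranged from 12.1 to 13.6 FPKM in LD and from 10.9 to 14.1 FPKM in ADV. The SD of log2(FPKM + 0.1) over the 8 livers was 0.10 for Aqp1 and 0.11 for Aqp11, and only 3.86% and 5.95% of the genes tested varied less. Their ADV minus LD differences were −0.10 (95% interval −0.30 to 0.10) and −0.02 (95% interval −0.25 to 0.22). Aqp4 was scarce and varied most, at 0.754, 0.705, 0.207 and 0.697 FPKM in L63, L65, L86 and L104 and 0.133, 0.923, 0.0512 and 0.318 FPKM in A75, A91, A94 and A115. Its groups overlapped and its difference was −0.87 (95% interval −2.17 to 0.43, adjusted p = 0.532). The size of this difference moved between −1.39 without A91 and −0.47 without A94, and to −0.26 with a pseudocount of 1. A gene on the other strand, AK140437, overlaps Aqp4 and had at most 0.0150 FPKM in the livers and 0.0581 FPKM in the kidneys.

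**Figure D1:**
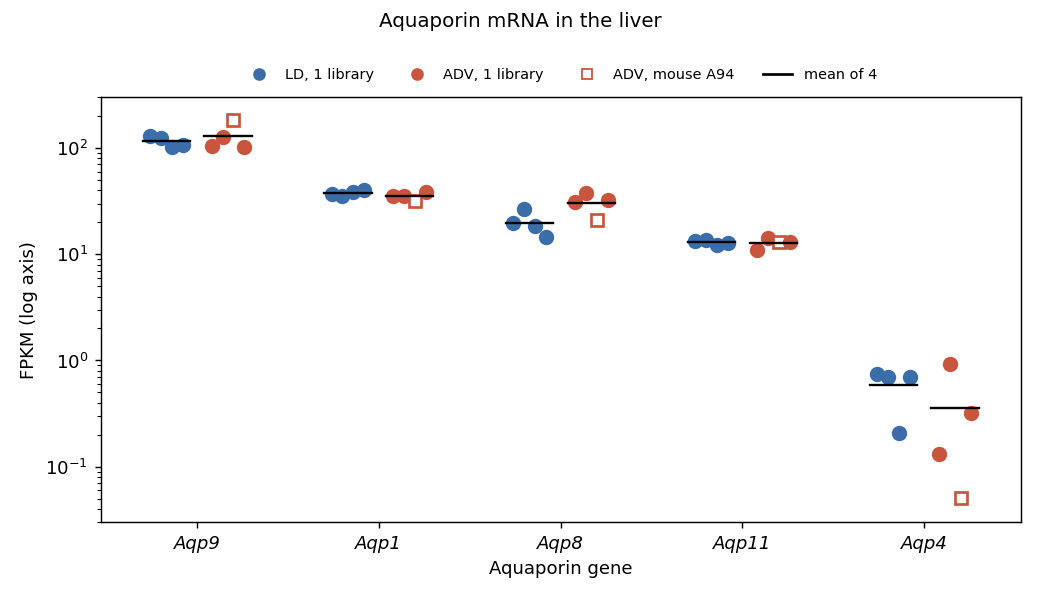
FPKM of the 5 aquaporins detected well in the liver, on a log axis, with 1 point per library, 4 LD (blue) and 4 ADV (red) livers, the open square for A94 and a black line for each group mean. Of the ADV livers, 3 lie above all LD livers for Aqp8, while A94 is highest for Aqp9 and lowest for Aqp4.

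In the kidney with all 8 libraries, none of the 7 members tested was called between ADV and LD by limma, as was 0% of the 14452 genes tested. Limma-voom also called 0 members and 0 genes. At an unadjusted p under 0.05 the count was 0 of 7 members and 448 of all genes. Beside this result stands the A115 library, which was the lowest of the 8 kidneys for 6 of the 7 members and within the range of the others for Aqp4. Without A115, 3 of the 7 members were called, all higher in ADV (Aqp2, Aqp3 and Aqp7), beside 16.1% of 14475 genes called higher, 2.68% called lower and 18.8% called either way. The median difference over all genes was then 0.20, and after scaling by the median ratio, which brought it to 0.01, 1 member (Aqp3) was called, beside 8.09% of genes called higher and 7.95% called lower. Aqp2 and Aqp3 were called, beside 11.2% of genes called higher, with mitochondrial genes left out of the library totals. Without A94 as well, which left 2 ADV kidneys, 1 member (Aqp3, 0.71, adjusted p = 0.0486) was called, beside 4.37% of genes called higher, and Aqp2 (1.19, adjusted p = 0.101) and Aqp7 (0.45, adjusted p = 0.151) were not. The 7 myeloid markers all had differences above 0 without A115, with a median of 0.97, and none was called. The part of the mitochondrial share and of myeloid cells in these results was not tested beyond these fits. The ADV group without A115 holds 3 kidneys against 4 LD kidneys.

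Aqp2, the vasopressin-regulated channel, had the widest spread of the members in the kidney. The LD kidneys held 35.7, 48.7, 84.4 and 94.7 FPKM in L63, L65, L86 and L104. The ADV kidneys held 104.4, 187, 200 and 1.81 FPKM in A75, A91, A94 and A115. Of the ADV kidneys 3 lay above every LD kidney and A115 lay far below all of them. The A115 value rested on 49 fragments, where the other 7 kidneys reached up to 5563.5. With all 8 kidneys the limma difference was −0.23 (SE 1.41, 95% interval −3.47 to 3.02, adjusted p = 1). Without A115 it was 1.36 (SE 0.37, 95% interval 0.53 to 2.20, adjusted p = 0.0366), from means of 164 ± 51.9 (SD, n = 3) and 65.9 ± 28.2 (SD, n = 4) FPKM. The LD kidneys alone already spread over a range of 35.7 to 94.7 FPKM, so that A75 lay just above the highest of them. After the further scaling by the median ratio it was 1.17 and the adjusted p 0.0575. The exact two-sided permutation test over the 35 assignments without A115 gave p = 0.0571 for Aqp2, where 0.0286 is the smallest possible.

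Aqp3, the basolateral water and glycerol exit of the same principal cells, followed the same order of groups with less spread. Its levels were 22.9, 27.6, 31.3 and 33.3 FPKM in L63, L65, L86 and L104 and 43.8, 49.7, 53.7 and 3.86 FPKM in A75, A91, A94 and A115. The 3 ADV kidneys other than A115 lay above the LD range. The limma difference was −0.13 (SE 0.79, adjusted p = 1) with A115 and 0.78 (SE 0.14, 95% interval 0.46 to 1.099, adjusted p = 0.0136) without it. It was also called without A115 after scaling by the median ratio, at 0.58 (adjusted p = 0.0334). The exact permutation test without A115 gave p = 0.0286 for Aqp3, the smallest possible with 35 assignments.

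Aqp4, the second basolateral channel of principal cells, did not share this pattern. The kidneys of L63, L65, L86 and L104 held 17.98, 15.2, 13.3 and 16.6 FPKM, and those of A75, A91, A94 and A115 held 12.1, 18.9, 11.4 and 14.9 FPKM. The groups overlapped with and without A115, which lay in the middle of the range here. Its differences were −0.16 (95% interval −0.61 to 0.30) and, without A115, −0.19 (95% interval −0.61 to 0.24). As a result the ratio of Aqp2 to Aqp4 FPKM lay between 1.99 and 6.33 in the LD kidneys, between 8.63 and 17.5 in A75, A91 and A94, and at 0.122 in A115.

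Aqp6, found in intracellular vesicles of intercalated cells, lay at 13.7, 14.2, 20.0 and 15.96 FPKM in L63, L65, L86 and L104 and at 20.9, 19.8, 22.3 and 1.41 FPKM in A75, A91, A94 and A115. Apart from A115 the groups overlapped slightly, as L86 was above A91. The difference was −0.54 (SE 0.83, adjusted p = 1) with A115 and 0.41 (SE 0.14, adjusted p = 0.0699) without it, and neither passed. The exact permutation test without A115 gave p = 0.0857. Aqp6 lies downstream of Aqp2 on chromosome 15 of mm10, at chr15:99601400-99605477 against chr15:99579056-99584545, both on the plus strand.

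Aqp1, the water channel of the proximal tubule, was the most abundant member in every kidney, at 265, 257, 278 and 295 FPKM in L63, L65, L86 and L104 and 305, 339, 315 and 50.8 FPKM in A75, A91, A94 and A115. The 3 ADV kidneys other than A115 lay above the LD range by a small margin. The difference was −0.44 (SE 0.58, adjusted p = 1) with A115. Without A115 it was 0.22 (SE 0.10, adjusted p = 0.128; exact permutation p = 0.0571), close to the median of all genes, and 0.03 after scaling by the median ratio. Aqp7, the aquaglyceroporin of the proximal tubule brush border, lay at 4.65, 3.52, 3.48 and 4.53 FPKM in L63, L65, L86 and L104 and at 4.97, 6.13, 7.56 and 2.55 FPKM in A75, A91, A94 and A115. Again 3 ADV kidneys exceeded the LD range. Its difference was 0.29 (SE 0.33, adjusted p = 1) with A115 and 0.60 (SE 0.18, adjusted p = 0.0499; exact permutation p = 0.0286) without it, at the edge of the threshold. After scaling by the median ratio it was 0.41 and no longer called (adjusted p = 0.16). Aqp11 lay at 21.4, 24.6, 21.4 and 22.7 FPKM in L63, L65, L86 and L104 and at 20.4, 28.7, 24.8 and 13.8 FPKM in A75, A91, A94 and A115, with overlapping groups. Its difference was −0.09 (95% interval −0.61 to 0.44) with A115 and 0.12 (95% interval −0.17 to 0.40) without it.

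Thus, apart from A115, the ADV and LD kidneys did not overlap for 4 of the 7 members (Aqp1, Aqp2, Aqp3 and Aqp7), all higher in ADV, beside 24.8% of all genes tested. The plot of kidney levels shows these 4 members together with the low A115 values. In whole-organ RNA, a change in the share of a cell type and a change in mRNA per cell cannot be told apart. The 7 principal cell markers summed to 78.8 to 126 FPKM in the LD kidneys, to 113 to 126 FPKM in A75, A91 and A94 and to 26.2 FPKM in A115, and none was at 0. Without A115, 2 of these 7 were called higher, Avpr2 and Gata3 (0.64, adjusted p = 0.0402, against 0.36 and an adjusted p of 1 with A115), beside 16.1% of all genes, with 1 (Avpr2) after scaling by the median ratio and 0 without A94 as well. The sums of the groups overlapped. With Hsd11b2 left out, the other 6 markers summed to 41.5 to 60.3 FPKM in LD and to 62.0 to 72.2 FPKM in A75, A91 and A94. With any other 1 of the 7 left out instead, the sums still overlapped. Without Fxyd4, for example, they were 67.5 to 103.6 FPKM in LD and 89.5 to 98.2 FPKM in A75, A91 and A94. By single gene, Avpr2, Gata3 and Fxyd4 did not overlap between LD and these ADV kidneys, whereas Scnn1b, Scnn1g, Hsd11b2 and Elf5 did. The 7 proximal tubule markers summed to 1460 to 1697 FPKM in the LD kidneys, to 1923 to 2364 FPKM in the 3 ADV kidneys and to 489 FPKM in A115. The separation of these sums came from the phosphate transporter gene Slc34a1, since the other 6 summed to 604 to 705 FPKM in LD and to 610 to 811 FPKM in A75, A91 and A94. Without A115, Slc34a1 (0.63, adjusted p = 0.0203) and the glucose transporter gene Slc5a2 (0.87, adjusted p = 0.0111) were called higher, 1 of them (Slc5a2) also after scaling by the median ratio, and Lrp2 (−0.12), Cubn (−0.21) and Slc5a12 (−0.25) had differences below 0 and were not called. With A115 none of the 7 was called and all 7 differences lay below 0. Intercalated cell markers summed to 90.3 to 105 FPKM in LD, 93.5 to 102 FPKM in the 3 ADV kidneys and 68.0 FPKM in A115. The anion exchanger gene Slc4a1 was the 1 of these 7 called without A115 (0.79, adjusted p = 0.0109, against 0.08 and an adjusted p of 1 with it). Of the 7 intercalated cell markers, 3 had differences above 0 without A115 and 4 below, with a median of −0.02. After scaling by the median ratio as well, 1 lay above 0 and 6 below. The part of these cell types in the aquaporin levels was not tested.

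**Figure D2:**
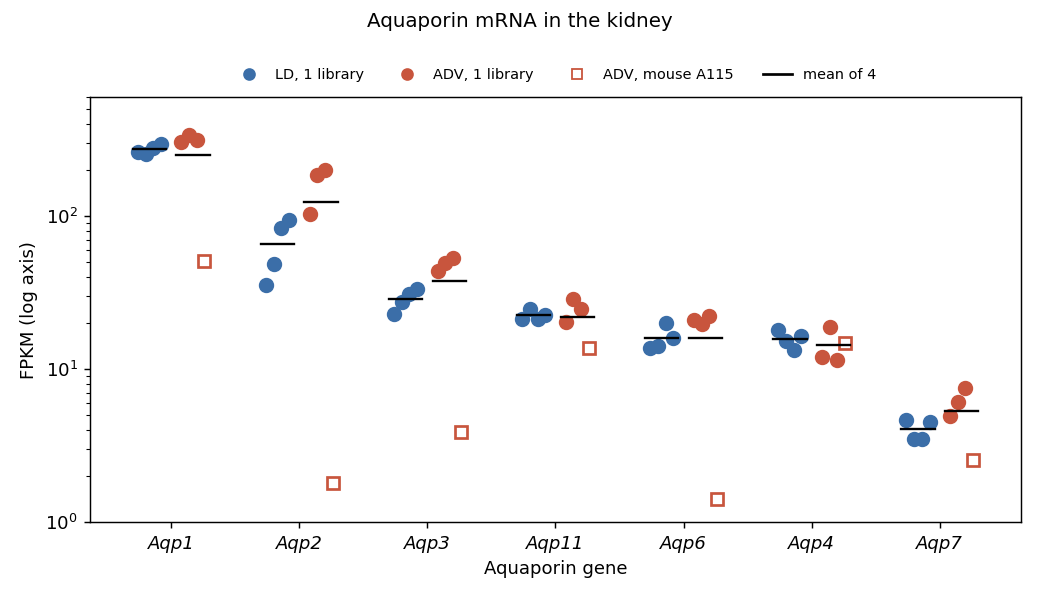
FPKM of the 7 aquaporins detected well in the kidney, on a log axis, with 1 point per library, 4 LD (blue) and 4 ADV (red) kidneys, the open square for A115 and a black line for each group mean. A115 is lowest for 6 of the 7 members, while the other 3 ADV kidneys lie above all LD kidneys for Aqp1, Aqp2, Aqp3 and Aqp7.

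**Figure D3:**
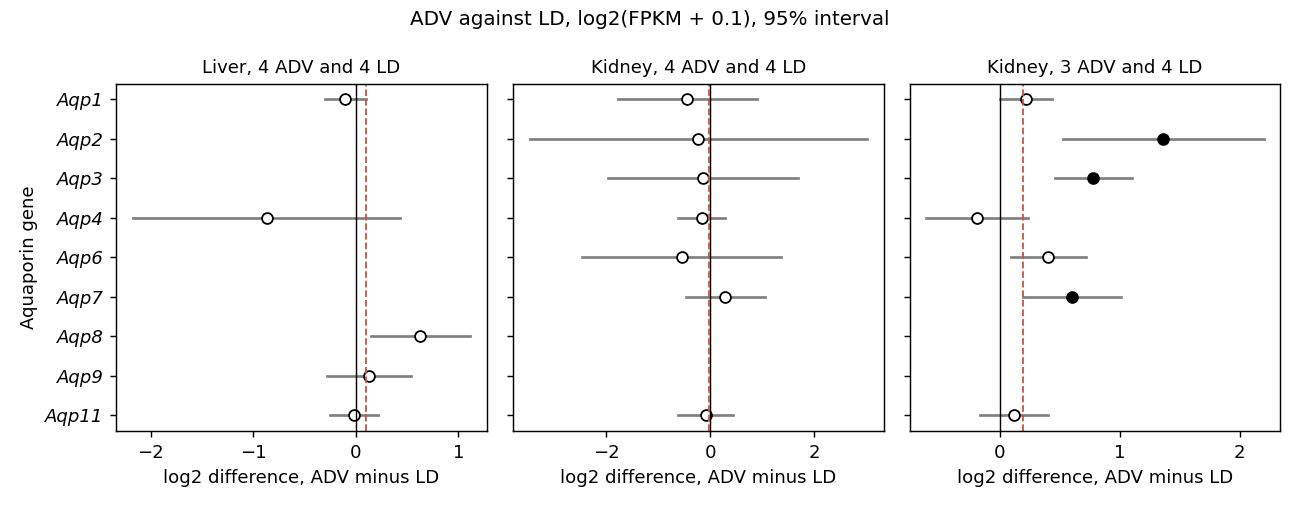
Difference of log2(FPKM + 0.1) between ADV and LD (circles) with its 95% interval (bars) for the members tested in the liver, in all kidneys and in the kidneys without A115. Filled circles have a limma adjusted p under 0.05, as Aqp2, Aqp3 and Aqp7 do without A115, and the dashed line is the median of all genes tested.

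The low levels of A115 moved with the base composition of the transcripts. Kidney genes were divided into 10 groups of 1391 genes by the GC content of the transcript. The median difference between A115 and the mean of the other 7 kidneys fell from 0.59 in the most AT-rich group to −2.33 in the most GC-rich group, on the log2 scale. Aqp4, with a GC content of 41.4%, lay in the most AT-rich group and differed by 0.01, whereas Aqp2, with 63.2%, lay in the most GC-rich group and differed by −5.58. Aqp3 (53.0%), Aqp1 (54.9%) and Aqp6 (56.1%) differed by −3.18, −2.52 and −3.57, below the medians of their GC groups of −1.14, −1.501 and −1.88. Aqp11 differed by −0.75 against −0.71 for its GC group, and Aqp7 by −0.89 against −0.42. The GC content of Aqp11 came from a transcript of 896 bases, shorter than its exon length of 1319 bases, so its GC group is less certain.

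The comparison of the 3 other ADV kidneys with the LD kidneys also moved with base composition, in the opposite direction and less steeply. Its median rose from −0.21 in the most AT-rich group to 0.72 in the most GC-rich group. Aqp2 differed by 1.36 where the median of its GC group was 0.72, Aqp3 by 0.78 against 0.31 and Aqp7 by 0.60 against 0.11. Aqp1 at 0.22 and Aqp6 at 0.41 lay below the medians of their GC groups of 0.41 and 0.56, as did Aqp11 at 0.12 against 0.20, and Aqp4 at −0.19 lay near its own of −0.21. So the differences of Aqp2, Aqp3 and Aqp7 lay above the median of genes of like GC content, and those of Aqp1, Aqp6 and Aqp11 lay below it. In their GC groups, 94.3%, 88.6% and 89.9% of genes had a lower difference than Aqp2, Aqp3 and Aqp7. Aqp2, at 63.2% GC, lay above the median GC content of its group, 59.9%. The part of base composition in these results was not tested.

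**Figure D4:**
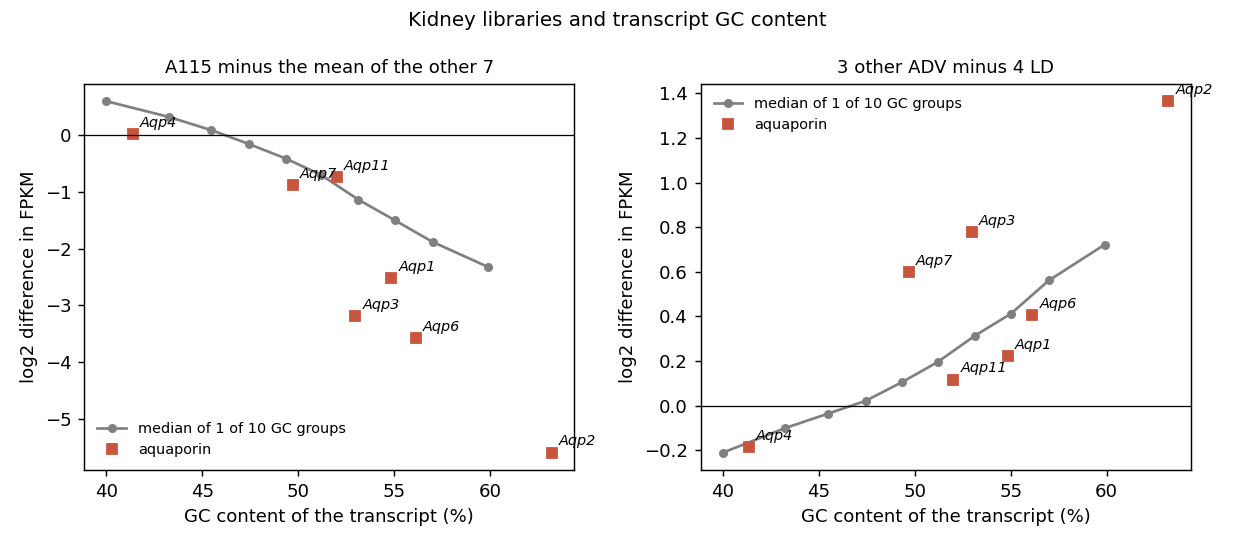
Log2 difference in FPKM against transcript GC content in the kidney, for A115 minus the mean of the other 7 kidneys (left) and for the other 3 ADV minus the 4 LD kidneys (right). Grey points are the medians of the 10 GC groups at their median GC content and red squares are the 7 aquaporins, of which Aqp2 lies at −5.58 on the left and 1.36 on the right.

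The ADV effect was also compared between the organs, where only Aqp1, Aqp4 and Aqp11 were well measured in both. None of the 9 members was called for a difference of the effect by limma, as was 0% of the 14968 genes, and 0 of 9 had an unadjusted p under 0.05, the smallest being 0.304. In that limma fit 556 of all genes had an unadjusted p under 0.05. Limma-voom called 0 members as well. Without A115 no member was called either, beside 2.74% of all genes. Of the 3 members measured in both organs, Aqp1 (−0.37, liver minus kidney, unadjusted p = 0.00775, adjusted p = 0.0977) had an unadjusted p under 0.05, beside 3190 of 14975 genes. For Aqp2, which had no fragment in the liver, the same quantity only restates the kidney difference.

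The vasopressin pathway that places AQP2 in the membrane was examined as a list of 25 genes, from the receptor through cAMP signalling to vesicle transport. With all kidneys 0 of the 25 were called and 0 had an unadjusted p under 0.05. Without A115, 6 were called higher and 1 lower of the 25, beside 16.1% and 2.68% of all genes. After scaling by the median ratio 4 were called higher and 1 lower, beside 8.09% and 7.95% of all genes, and Adcy6 and Dynll2 lost their calls. Without A94 as well as A115, 2 were called higher, beside 4.37% of all genes, and 0 lower. The receptor gene Avpr2 lay at 3.89, 4.72, 7.31 and 6.69 FPKM in L63, L65, L86 and L104 and at 10.3, 9.70, 11.3 and 2.63 FPKM in A75, A91, A94 and A115. As for Aqp2, the 3 ADV kidneys lay above and A115 below all LD kidneys, and the difference was 0.43 (SE 0.47, adjusted p = 1) with A115 and 0.91 (SE 0.21, adjusted p = 0.0254) without it. Adcy6, an adenylyl cyclase downstream of the receptor, differed by 0.48 (adjusted p = 0.0207) without A115 and by −0.10 with it. Of the vesicle docking and transport genes, the syntaxin gene Stx4a differed by 0.61 (adjusted p = 0.0131) and the dynein and dynactin genes Dynll2 and Dctn1 by 0.35 (adjusted p = 0.0324) and 0.53 (adjusted p = 0.0128), where the values with A115 were 0.31, −0.05 and 0.04 and were not called. Rab5a, of early endosomes, differed by −0.48 (adjusted p = 0.0389) and, with A115, by −0.32 (adjusted p = 1). The median difference over the list was 0.08, against 0.20 for all genes tested. In the liver 0 of the 23 tested were called and 4 had an unadjusted p under 0.05, beside 1512 of 12835 genes, and Stx4a (0.51, unadjusted p = 0.00407) and Pkia (0.85, unadjusted p = 0.0103) came nearest by limma.

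Genes of the osmotic response and urea transport, which act beside AQP2 in urine concentration, numbered 8. None was called in either organ with all mice, by limma, nor in the kidney without A115, where 3 of the 8 had an unadjusted p under 0.05, beside 5366 of 14475 genes. After scaling by the median ratio as well, 1 was called lower, Nfat5, the transcription factor of the osmotic response (−0.42, adjusted p = 0.0388). Slc14a2, the urea transporter of the collecting duct, lay at 5.12, 6.09, 10.5 and 10.7 FPKM in L63, L65, L86 and L104 and at 15.98, 14.7, 12.6 and 4.26 FPKM in A75, A91, A94 and A115. The 3 ADV kidneys exceeded the LD range and A115 fell below it, and the difference was 0.46 (SE 0.46, adjusted p = 1) with A115 and 0.89 (SE 0.27, adjusted p = 0.0501) without it. Slc6a6, the taurine transporter, differed by 0.38 (adjusted p = 1) with A115 and 0.31 (adjusted p = 0.0883) without it, and its level was highest in A115. With all mice, the unadjusted count was 1 in the kidney, Slc6a6, and 1 in the liver, Sgk1.

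Glycerol handling was covered by 9 genes of glycerol uptake, release and use, as the substrate of Aqp3, Aqp7 and Aqp9. With all mice 0 were called by limma in either organ, and 3 in each organ had an unadjusted p under 0.05, beside 1512 of 12835 genes in the liver and 448 of 14452 in the kidney. In the liver, where AQP9 supplies glycerol, Pck1 (−0.61, unadjusted p = 0.0055), an enzyme of gluconeogenesis, and Lpl (1.19, unadjusted p = 0.0167), lipoprotein lipase, came nearest. Lpl lay at 14.4 FPKM in A94, the liver highest in myeloid markers, against 3.28 to 5.12 FPKM in the other ADV livers, and its difference without A94 was 0.73 (adjusted p = 0.173). In the kidney, Lpl (−0.66, unadjusted p = 0.00375) and Pck1 (−0.75, unadjusted p = 0.015) came nearest as well. Without A115, 2 kidney genes were called higher, Gpd1 (0.48, adjusted p = 0.0322) and Pnpla2 (0.52, adjusted p = 0.0167), and 2 lower, Lpl (−0.68, adjusted p = 0.0202) and Pck1 (−0.55, adjusted p = 0.0431). These 2 of 9 in each direction stand beside 16.1% of all genes called higher and 2.68% called lower. With A115, Gpd1 (−0.35) and Pnpla2 (−0.11) had the opposite sign, as all 9 differences lay below 0. Without A115 and after scaling by the median ratio 0 were called higher and 3 lower, beside 8.09% and 7.95% of all genes, namely Lpl (−0.88, adjusted p = 0.0246), Pck1 (−0.75, adjusted p = 0.0346) and the glycerol phosphate dehydrogenase gene Gpd2 (−0.72, adjusted p = 0.0436). The higher calls of Gpd1 and Pnpla2 thus rested on the scaling, as that of Aqp7 did. Without A94 as well as A115, 0 of the 9 were called by limma and 8 had an unadjusted p under 0.05, beside 4191 of 14303 genes.

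The genes whose level over the 8 kidneys came nearest to that of Aqp2 were Bik, Tspo and Emc9. Their centred log2 levels differed from those of Aqp2 by 0.27, 0.28 and 0.32 on average, where the median over 14451 genes was 1.32. Tspo, for example, lay between 22.6 and 50.4 FPKM in LD, between 66.6 and 88.6 FPKM in A75, A91 and A94, and at 0.797 FPKM in A115. The likeness therefore included the low value in A115. For Aqp8 in the liver the nearest genes were Bco2, Adh4 and Hsd3b2, at 0.171, 0.173 and 0.174 against a median of 0.45 over 12834 genes. Adh4, an alcohol dehydrogenase, lay between 54.6 and 84.2 FPKM in LD and at 95.3, 95.3, 68.6 and 81.9 FPKM in A75, A91, A94 and A115.

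The promoters of Aqp2 and Aqp8 are shown because these members varied most over the 8 mice among those above 1 FPKM in their organ, and because both hold the E-box CACGTG, the motif that the clock proteins CLOCK and BMAL1 are known to bind. Each sequence is the 250 bases before the RefSeq transcription start in GRCm38.p6, which coincides with the gene start in the deposited tables, written 5′ to 3′ on the plus strand with the E-box in capitals. Aqp2 lies at chr15:99578806-99579055 and Aqp8 at chr7:123462044-123462293.
Aqp2: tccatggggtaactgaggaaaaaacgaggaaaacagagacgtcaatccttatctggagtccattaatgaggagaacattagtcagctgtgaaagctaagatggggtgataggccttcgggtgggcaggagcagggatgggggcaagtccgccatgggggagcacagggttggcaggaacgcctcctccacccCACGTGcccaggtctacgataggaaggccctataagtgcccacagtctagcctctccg
Aqp8: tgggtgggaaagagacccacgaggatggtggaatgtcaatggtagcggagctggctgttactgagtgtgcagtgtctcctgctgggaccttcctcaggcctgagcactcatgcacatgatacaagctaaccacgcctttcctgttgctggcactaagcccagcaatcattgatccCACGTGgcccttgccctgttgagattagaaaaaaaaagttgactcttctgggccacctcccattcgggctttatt
The E-box lay 53 to 58 bases before the start of Aqp2 and 70 to 75 bases before that of Aqp8. It was also found 24 to 29 bases before the RefSeq start of Aqp6, which differs by 200 bases from the start in the deposited tables. In all, 3 of the 8 members searched held it, beside 6.02% of 32851 promoter windows of the same length. Aqp4 was not searched.

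Further motifs were searched on both strands in the same windows. The cAMP response half-site TGACG was found in Aqp2 alone, 207 to 211 bases before its start, and in 17.8% of all windows, and the full site TGACGTCA in no member. The general E-box CANNTG, which includes CACGTG, was in 7 of the 8 members and in 66.2% of all windows. TGGAA was found in 5 members against 48.8% of all windows. The nuclear receptor half-site AGGTCA occurred for Aqp7 and Aqp11 against 14.0% of windows. GATAA occurred for Aqp2 and Aqp7 against 22.6% of windows. The TATA-box letters TATAAA occurred only for Aqp3 against 12.4% of windows. Aqp9 alone held TGTTTGC, found in 4.30% of windows. No member held the related pattern TGTTTAC. Neither the D-box TTATNNAA nor the pattern ACCGGT was present in any member. These matches describe the letters of the windows.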

How the data were processed

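Poly(A)-enriched RNA-seq of liver and kidney from 8 mice was used. The authors trimmed adaptors, mapped reads to mm10 with STAR 2.5.4b, kept those with a mapping quality of at least 10 and quantified exons with HOMER. Values were deposited as FPKM, each library divided by its own total, which was multiplied back to fragments in steps of 0.5 for 100% of values. Genes with a mean above 0.5 RPM (fragments per library total before division by exon length) were tested with limma 3.58.1 in R 4.3.3 on log2(FPKM + 0.1), with a trend in the variance prior, adjusted over all genes at a threshold of 0.05. The organs were fitted apart for ADV against LD and together for organ contrasts. Exact permutation tests were two-sided (SciPy 1.17.1, Python 3.11.15). Markers were checked by list, and GC content came from GENCODE transcripts, found for 96.2% of the kidney genes tested. The tests were tried on simulated data, where 167 of 200 genes changed by 1.5 on the log2 scale were recovered for the liver comparison and 99 of 200 for the kidney comparison. Alternatives covered pseudocounts, filters, scalings, the variance prior, limma-voom and each mouse left out. After seeing the data, A115 was also left out together with A94 and with the mitochondrial genes. The members and lists were chosen with earlier results of these data known. Named genes were all members, list genes with an adjusted p under 0.05 or the 2 smallest p-values, and the 3 genes nearest to the most variable member of each organ. For 1 called gene of the vasopressin list the values are not reported here.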

Additional observations from a re-analysis of the deposited data

Results flagged for a closer look

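In groups of 4, a library was looked at again where its gap to the nearest other library exceeded Dixon's 95% critical value as a share of the group's range. Of 31 groups 6 had such a library. The rate of about 1 in 20 holds for independent normal samples. These groups shared libraries and some lay at a few fragments or 0, so that rate is no yardstick for the count. Among the ADV kidneys, A115 was low for Aqp1, at 50.8 FPKM against 305 to 339, and for Aqp6, at 1.41 FPKM against 19.8 to 22.3. Aqp2 and Aqp3 were also lowest in A115, but the wider spread of the other 3 kidneys kept them under that value. The A94 mouse stood out at a very low level in both organs, with Aqp9 at 0.596 FPKM in its kidney against 0 to 0.0856 in the other ADV kidneys and Aqp7 at 0.0524 FPKM in its liver against 0 in the others. The former rests on 31 fragments and the latter on 3. Among the LD livers, L86 was low for Aqp4, at 0.207 FPKM against 0.697 to 0.754. In the kidneys of the same group, Aqp8 was at 0 in L65 against 0.0349 to 0.0394, where each of the other values is 1 fragment.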

How the results depend on the processing

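Among the alternative values of single members, 602 kept their direction and their side of the threshold, and 25 changed sign. Calls were gained by 7 values, 6 of them with a change of sign, all for Aqp2, Aqp3 or Aqp7 in the kidney without A115, and lost by 6, all for Aqp11 between the organs and 3 of them with a change of sign. Of the alternative counts of called members 95 stayed within 1.5 times and 4, all in the kidney, did not. The number of members called between ADV and LD there was 0 to 3 when each mouse was left out, with 3 without A115, and 1 without A115 and with median-ratio scaling. A pair of alternatives was chosen after seeing the data. Without A115 and A94 the count was 1, and the differences were 0.23, 1.19, 0.71, 0.36 and 0.11 for Aqp1, Aqp2, Aqp3, Aqp6 and Aqp11. Without A115 and with mitochondrial genes left out of the library total the count was 2, and the differences were 0.13, 1.27, 0.69, 0.32 and 0.027. Leaving out each mouse moved the kidney difference between −0.69 and 0.22 for Aqp1, −0.87 and 1.36 for Aqp2, −0.47 and 0.78 for Aqp3, −0.89 and 0.41 for Aqp6, and −0.23 and 0.12 for Aqp11, the upper value being that without A115 in each case. Without A115 and with median-ratio scaling these were 0.025, 1.17, 0.58 and 0.21 for Aqp1, Aqp2, Aqp3 and Aqp6. In the liver, leaving out each mouse moved the difference between −0.054 (without A94) and 0.22 for Aqp9, between −0.064 and 0.059 for Aqp11, and between −1.39 (without A91) and −0.47 (without A94) for Aqp4, which was −0.26 with a pseudocount of 1. Aqp8 stayed between 0.49 and 0.80 under all 20 alternatives, with adjusted p from 0.153 to 0.747. The liver to kidney difference of Aqp11 became 0.014 in LD and 0.0084 in ADV by median-ratio scaling, and 0.0041 in LD without A115 as well, and it lost its call with quantile normalization (−0.28 in LD, −0.25 in ADV). Library names share mouse numbers between the organs. With the mouse as a replicate block the counts were 9, 9 and 0 members for the organ contrasts and the difference of the ADV effect, and 0 and 0 for ADV against LD, so no call changed. Deviations of same-numbered livers and kidneys correlated at −0.02 to 0.55, with the own number highest in 6 of 8. Depth limits Aqp3 and Aqp7 in the liver and Aqp8 and Aqp9 in the kidney, which rest on at most 51 fragments over 8 libraries.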

Other observations

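Erythroid and endothelial markers gave further values beside the kidney results. The summed level of 4 erythroid genes, alpha and beta globins and Alas2, was 156 to 352 FPKM in the LD kidneys, 345 to 835 FPKM in A75, A91 and A94 and 114.8 FPKM in A115. Endothelial markers summed to 134 to 146 FPKM in LD, 153 to 191 FPKM in the 3 ADV kidneys and 118 FPKM in A115. Plvap, of fenestrated endothelium, carried this separation, at 29.2 to 43.2 FPKM in LD, 67.7 to 96.2 FPKM in the 3 ADV kidneys and 4.86 FPKM in A115, while the other 5 markers summed to 100.3 to 108 FPKM in LD and 85.8 to 114.6 FPKM in the 3 ADV kidneys. Aqp1 is known from red cells and renal capillaries as well as from the proximal tubule, and the part of these cells in its level was not tested.

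In the livers, 1 gene carried the highest sum of several marker lists. Of the cholangiocyte markers, Spp1 lay at 242 FPKM in A94 against 16.9 to 34.8 FPKM in the other 7, whereas the other 6 summed to 4.40 FPKM in A94, 18.8 FPKM in A75, 9.93 FPKM in A115 and 2.03 to 3.11 FPKM in the other 5. Aqp1, which bile duct cells express, was lowest in A94. Of the adipocyte markers, Fabp4 lay at 64.7 FPKM in A94 against 9.16 to 26.4 FPKM in the others, but Adipoq, Plin1 and Lep were at 0 there, in the only liver in which Aqp7, the adipocyte channel, had fragments. Of the exocrine pancreas markers, Ctrb1 lay at 4.73 FPKM in A75 and at most 0.0464 FPKM elsewhere, and the other 5 summed to at most 0.243 FPKM in any liver. Of the thick ascending limb markers, Umod lay at 1.33 FPKM in the A94 liver and at most 0.0158 FPKM in the other 7 livers. In the kidneys these markers summed to 1656 to 2669 FPKM, apart from A115 at 1254 FPKM.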
